A study of Mus musculus with 12 samples.

Results

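Expression of 34 genes of glucose metabolism and the hypoxia response was examined in cardiac macrophages after myocardial infarction. They are the glucose and lactate transporters, the enzymes from hexokinase to pyruvate kinase, lactate dehydrogenase A, pyruvate dehydrogenase kinase 1, and the oxygen-sensing factor Hif1a with its prolyl hydroxylases and some of its known targets. Members were taken by symbol from the 53801 genes of the count and TPM tables, and where a symbol had 2 rows (Aldoa) the row with the higher total was used. RNA of heart macrophages was sequenced in bulk from 12 libraries in 4 groups of 3, from the CCR2low and CCR2hi gates of each of 2 genotypes, WT and Bhlhe41Cre. Bhlhe41Cre stands for Bhlhe41dTomato-Cre+/-, mice with 1 copy of a dTomato-Cre insertion at the transcription factor gene Bhlhe41, and the labels name no other allele for them. CCR2low and CCR2hi are sorting gates on CCR2, the receptor for the chemokine CCL2, which marks macrophages that came from blood monocytes. Mice of every group had the left anterior descending coronary artery tied, so there is no uninjured heart among the groups. The labels give C57BL/6N male mice, and give neither their age, the time after infarction, a sequencing batch, nor how many animals went into a library. P-values therefore measure the spread between these libraries, which may be technical.

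Glycolysis splits glucose into pyruvate in the cytosol and makes ATP without oxygen. Most steps are served by several isoenzymes from separate genes, with differing affinity and regulation. When oxygen is low, the prolyl hydroxylases (Egln genes) no longer mark HIF1α for destruction, and HIF1α with its partner ARNT switches on glucose transporters, most glycolytic genes, Ldha and Pdk1, which turns pyruvate away from the mitochondria. Inflammatory signals raise the same pathway in macrophages, and recently arrived monocyte-derived macrophages are known for high glycolysis.

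HIF binds a short core motif, ACGTG or GCGTG, and these letters were counted on both strands in the 250 bases before each start site in the RefSeq promoter table (GRCm38.p6). Of the 34 members 32 had such a window, Ero1l under its newer symbol Ero1a. At least 1 match was found in 29 of the 32 members (90.6%), against 41.5% of all genes in the table. Members had 45 windows, as some have several starts, and 82.2% of these held a match, against 38.6% of all 32851 windows of the same length. The palindrome CACGTG, the E-box read by BHLHE41 and its relatives, contains the core on each strand and counts as 2 matches; it was found in 6 of 32 members (18.8%) and 6.86% of all genes. A match is a description of the letters, not a bound site. Members were chosen in part as known HIF targets, and the genes they are set against were not matched for base composition or expression. The higher share among members is therefore not a result of these data. Windows are shown for 3 members of lower glycolysis and pyruvate fate that were higher in CCR2low in both genotypes (Gapdh, Pgk1, Pdk1), the hexokinase that differed most between the gates on total RNA (Hk3), a transporter higher in Bhlhe41Cre (Slc16a1) and the 2 members that were lowest in CCR2low relative to CCR2hi (Adm, P4ha2). None overlaps an exon of GENCODE release M21. Pdk1 has another window in the table, which lies in exon bases and holds no match, and is not shown. Each is printed 5′ to 3′ on the gene's strand, ending at the base before the start site, with matches to the core on either strand in capitals.
Slc16a1, chr3:104638414-104638663, plus strand: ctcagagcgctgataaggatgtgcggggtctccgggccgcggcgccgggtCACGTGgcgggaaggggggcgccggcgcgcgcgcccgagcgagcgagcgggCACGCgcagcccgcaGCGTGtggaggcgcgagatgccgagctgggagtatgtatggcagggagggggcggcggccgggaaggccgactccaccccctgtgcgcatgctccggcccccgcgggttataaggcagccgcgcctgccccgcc
Hk3, chr13:55021386-55021635, minus strand: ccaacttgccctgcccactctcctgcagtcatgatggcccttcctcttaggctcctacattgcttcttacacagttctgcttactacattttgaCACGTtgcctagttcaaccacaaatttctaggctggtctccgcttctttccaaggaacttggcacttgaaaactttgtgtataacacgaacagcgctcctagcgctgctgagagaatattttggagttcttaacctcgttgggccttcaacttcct
Gapdh, chr6:125165774-125166023, minus strand: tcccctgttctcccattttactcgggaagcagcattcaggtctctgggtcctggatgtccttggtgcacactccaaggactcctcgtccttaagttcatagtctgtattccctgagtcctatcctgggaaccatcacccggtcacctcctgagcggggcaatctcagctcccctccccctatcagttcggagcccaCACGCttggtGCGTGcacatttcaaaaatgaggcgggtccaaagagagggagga
Pgk1, chrX:106186850-106187099, plus strand: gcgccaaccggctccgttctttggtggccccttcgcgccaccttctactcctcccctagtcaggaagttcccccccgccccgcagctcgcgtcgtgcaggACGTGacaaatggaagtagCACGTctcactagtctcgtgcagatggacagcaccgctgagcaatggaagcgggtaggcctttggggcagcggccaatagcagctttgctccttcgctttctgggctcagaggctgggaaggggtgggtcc
Pdk1, chr2:71872974-71873223, plus strand: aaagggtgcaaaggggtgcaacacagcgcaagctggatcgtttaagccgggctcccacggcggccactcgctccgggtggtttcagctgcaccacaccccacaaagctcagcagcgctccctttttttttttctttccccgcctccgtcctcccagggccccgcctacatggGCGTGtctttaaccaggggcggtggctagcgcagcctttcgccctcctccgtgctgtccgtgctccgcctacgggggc
Adm, chr7:110627407-110627656, plus strand: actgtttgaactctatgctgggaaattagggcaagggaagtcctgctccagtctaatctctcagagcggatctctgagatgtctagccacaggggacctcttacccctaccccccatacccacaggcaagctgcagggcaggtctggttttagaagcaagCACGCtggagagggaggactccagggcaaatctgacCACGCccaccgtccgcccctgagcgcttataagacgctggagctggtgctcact
P4ha2, chr11:54100674-54100923, plus strand: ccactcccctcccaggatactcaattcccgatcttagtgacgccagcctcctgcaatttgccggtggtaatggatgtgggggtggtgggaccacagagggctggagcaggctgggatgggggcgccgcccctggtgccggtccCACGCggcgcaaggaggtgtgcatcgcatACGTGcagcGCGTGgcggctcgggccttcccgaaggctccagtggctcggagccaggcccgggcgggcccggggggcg

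Members higher in CCR2low (Hk3, Gapdh, Pgk1, Pdk1) and members lower in it (Adm, P4ha2) alike held matches. By role, a match was found in 3 of 3 transporters with a window, 8 of 10 upper glycolysis genes, 2 of 2 fructose 2,6-bisphosphate enzymes, 5 of 6 lower glycolysis genes, 2 of 2 pyruvate fate genes and 9 of 9 genes of the HIF group. Among the windows above, Slc16a1 held CACGTG, which gives 2 of its 4 matches. No CACGTG was found in the other members with a window that were higher in Bhlhe41Cre in both gates. These were Slc2a1, Hk3, Gapdh, Pgk1, Pgam1, Pkm and Ero1l. The Hk3 window held 1 match.

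Each library held 17.7 to 20.83 M counts (M stands for 1000000). Marker genes of several cell types differed between the gates. Macrophage identity genes (17 genes such as Adgre1, Csf1r and C1qa) took 3.27 to 3.57% of counts in WT CCR2low and 2.97 to 3.28% in Bhlhe41Cre CCR2low, but 0.23 to 0.543% in WT CCR2hi and 0.809 to 1.05% in Bhlhe41Cre CCR2hi. Fibroblast genes (16 genes such as Col1a1 and Dcn) took 0.907 to 1.29%, 0.471 to 0.914%, 9.64 to 10.5% and 4.91 to 6.21% in the same order. Every one of the 17 macrophage genes was called higher and every one of the 16 fibroblast genes lower in CCR2low in both genotypes, and none of either list was at 0 in every library of a group. All 10 endothelial genes were lower in CCR2low in both genotypes, and 9 of 10 mural genes in WT and 10 of 10 in Bhlhe41Cre. Cardiomyocyte genes were lower in CCR2low for 2 of 12 in WT and 12 of 12 in Bhlhe41Cre. Neutrophil genes (10 genes) took 0.0833 to 0.131% of counts in Bhlhe41Cre CCR2hi and at most 0.0256% elsewhere. In bulk RNA, fewer cells of a type and less RNA per cell cannot be told apart. All 34 members are expressed by other cell types too, so each was also expressed relative to the 17 macrophage genes: library scale was set to their geometric mean (the macrophage scale) in place of total RNA (TMM scaling, the total-RNA scale). This moved the median of all genes by -3.15 between the WT gates, -2.02 between the Bhlhe41Cre gates, 0.10 between genotypes in CCR2low, -1.04 between genotypes in CCR2hi and 1.13 for the interaction (log2). The part that other cells play in the differences between gates was not tested. The comparison of genotypes in CCR2low is the one where both scales nearly coincide: there 1 macrophage gene was called higher and 1 lower, though 11 of 16 fibroblast, 11 of 12 cardiomyocyte, 10 of 10 mural, 5 of 6 adipocyte and 6 of 10 lymphocyte (T, NK and B cell) genes were lower in Bhlhe41Cre.

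Bhlhe41, the gene that carries the insertion, had 642 to 774 counts (CCR2low) and 531 to 920 counts (CCR2hi) per WT library, and 226 to 477 and 132 to 198 per Bhlhe41Cre library, so that every Bhlhe41Cre library was below every WT library. All 6 Bhlhe41Cre libraries go against their label of male mice. Xist, which female cells express, had 2027 to 3699 counts per Bhlhe41Cre CCR2low library, 1403 to 1798 per Bhlhe41Cre CCR2hi library and at most 3 in the WT libraries. Counts of 4 Y-linked genes were 668 to 897 per WT CCR2low library and 1056 to 1741 per WT CCR2hi library, and were 105 and 182 in the 2 Bhlhe41Cre libraries numbered 3, against 709 to 1446 in the other 4. Those 4 also hold 1589 to 3699 Xist counts, so leaving out the libraries numbered 3 does not remove the difference in Xist. Sex and genotype cannot be told apart over all libraries, and the counts of members called are given below with and without the libraries numbered 3. WT CCR2hi 1 also stood apart for some members (Hk2, Slc2a1, Slc16a1), as given with them.

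**Figure D1:**
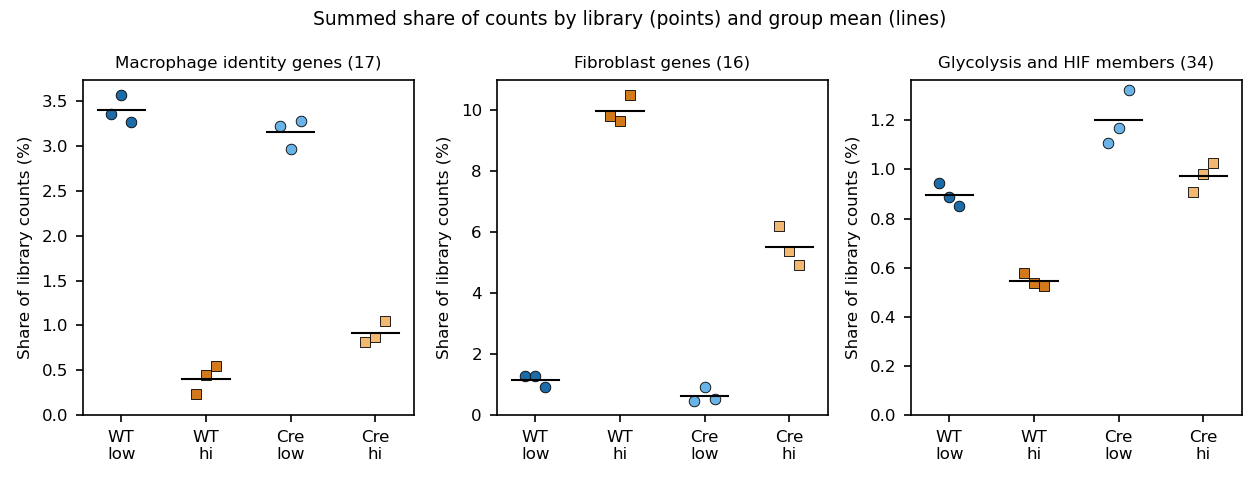
Share of library counts (%) of the 17 macrophage identity genes, the 16 fibroblast genes and the 34 members in the 12 libraries (points, 3 per group; lines are group means; WT and Cre are the genotypes, low and hi the CCR2 gates). In WT, macrophage genes are at 3.27 to 3.57% for CCR2low and 0.23 to 0.543% for CCR2hi, fibroblast genes run the other way, and the members are highest in Bhlhe41Cre CCR2low and lowest in WT CCR2hi.

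Together the 34 members took 0.852 to 0.946% of counts in CCR2low and 0.526 to 0.577% in CCR2hi for WT, and 1.106 to 1.324% and 0.908 to 1.028% for Bhlhe41Cre, with no overlap between CCR2low and CCR2hi within a genotype or between genotypes within a gate. All 34 passed the filter on low counts. In the edgeR quasi-likelihood fit over 14964 genes (adjusted p under 0.05 is a call, Benjamini-Hochberg over all genes), 20 members were higher and 6 lower in WT CCR2low than in WT CCR2hi. Of all genes, 29.8% were higher and 30.0% lower in that comparison. Between the Bhlhe41Cre gates 15 members were higher and 7 lower in CCR2low, against 24.9% and 29.1% of all genes. In CCR2low 13 members were higher and 6 lower in Bhlhe41Cre than in WT, against 16.4% and 26.7% of all genes. In CCR2hi 20 members were higher and 1 lower in Bhlhe41Cre, against 16.2% and 15.9%. The interaction, which is the gate difference in Bhlhe41Cre minus that in WT, was called for 2 members upwards and 4 downwards, against 4.74% and 7.85% of all genes. Median log2 differences over the 34 members were 0.57, 0.29, 0.30, 0.63 and -0.42 in these 5 comparisons, beside 0.01, -0.01, -0.18, -0.03 and -0.18 over all genes tested. The comparisons share libraries, so these counts are not independent of each other.

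On the macrophage scale the direction of the gate difference turned for most members. There 1 member (Hk3) was higher and 32 lower in WT CCR2low, against 0.809% and 94.6% of all genes, and 1 (Hk3) was higher and 32 lower in Bhlhe41Cre CCR2low, against 0.454% and 90.9%. Between genotypes in CCR2low 4 were higher and 0 lower, against 6.78% and 8.93%. These 4 were Hif1a, Eno2, Ero1l and Hk3. The median over the 34 members in CCR2low was 0.38 on this scale and 0.30 on total RNA. Fewer calls there thus did not go with a smaller median difference. In CCR2hi 1 (Hk3) was higher and 10 lower, against 1.97% and 64.5%, and 12 of the 20 members called higher in Bhlhe41Cre CCR2hi on total RNA had values below 0, 7 above and 1 at 0.00. The interaction on this scale was called upwards for 4 members (Eno2, Hif1a, P4ha1, Pfkp) and downwards for 0, against 22.3% and 0.742%. Leaving out 1 library moved these counts widely, as it did those over all genes. Over all genes they ran between genotypes in CCR2low from 749 (without Bhlhe41Cre CCR2low 1) to 5383 (without WT CCR2hi 1), in CCR2hi from 6948 (without Bhlhe41Cre CCR2hi 3) to 11191 (without WT CCR2hi 3), and in the interaction from 548 (without WT CCR2low 2) to 7885 (without WT CCR2hi 3). Among members they ran between genotypes in CCR2low from 1 without WT CCR2low 1 or 2 to 22 without WT CCR2hi 1, in CCR2hi from 6 without Bhlhe41Cre CCR2hi 3 to 16 without WT CCR2hi 3, and in the interaction from 2, without any 1 WT CCR2low library among others, to 15 without WT CCR2hi 3. The Hk3 call between genotypes in CCR2low ended without any 1 WT CCR2low library or Bhlhe41Cre CCR2low 3 (adjusted p = 0.0513 to 0.0779). The Eno2 call between genotypes in CCR2low ended without WT CCR2low 1 or 2 or Bhlhe41Cre CCR2low 1 (adjusted p = 0.0587 to 0.0913). The Ero1l call between genotypes in CCR2low ended without any 1 WT CCR2low library, Bhlhe41Cre CCR2low 1 or 2 or Bhlhe41Cre CCR2hi 1 or 2 (adjusted p = 0.0526 to 0.145). The P4ha1 call of the interaction ended without any 1 WT CCR2low library, Bhlhe41Cre CCR2low 1 or 2 or Bhlhe41Cre CCR2hi 2 or 3 (adjusted p = 0.0602 to 0.0947). The Pfkp call of the interaction ended without any 1 WT CCR2low library, Bhlhe41Cre CCR2low 1 or 2 or any 1 Bhlhe41Cre CCR2hi library (adjusted p = 0.0566 to 0.125). The Pfkp difference of the interaction became 0.83 without WT CCR2hi 1.

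Without both Bhlhe41Cre libraries numbered 3, the member calls on total RNA were 21 higher and 6 lower between the WT gates, 13 higher and 8 lower between the Bhlhe41Cre gates, 13 higher and 5 lower between genotypes in CCR2low, 22 higher and 1 lower in CCR2hi, and 2 higher and 6 lower in the interaction. Over all genes 9417, 7359, 6851, 4456 and 2119 were called there, both directions together. The main fit called 4454 higher and 4495 lower, 3733 and 4361, 2448 and 3993, 2424 and 2384, and 710 and 1174 of all genes. Of the member calls in the main fit, 19 of 26, 18 of 22, 13 of 19, 15 of 21 and 2 of 6 held when each library was left out in turn, and those that did not are named with their role. Leaving out WT CCR2hi 1 or any 1 of the 3 Bhlhe41Cre CCR2hi libraries also moved the median of all genes between the WT gates by -0.21 to -0.20 and between genotypes in CCR2low by 0.19, and leaving out Bhlhe41Cre CCR2low 3 by -0.15 and 0.16. On TPM (limma-trend) the members split 13 higher and 7 lower between the WT gates and 11 higher and 8 lower between the Bhlhe41Cre gates, the same split as with no TMM factor in the latter. Over all genes limma-trend called 8414 and 7155 in these comparisons, and the fit with no TMM factor 7917 in the latter. With only the libraries compared, the members split 16 higher and 3 lower between genotypes in CCR2low, with 5442 calls over all genes.

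**Figure D2:**
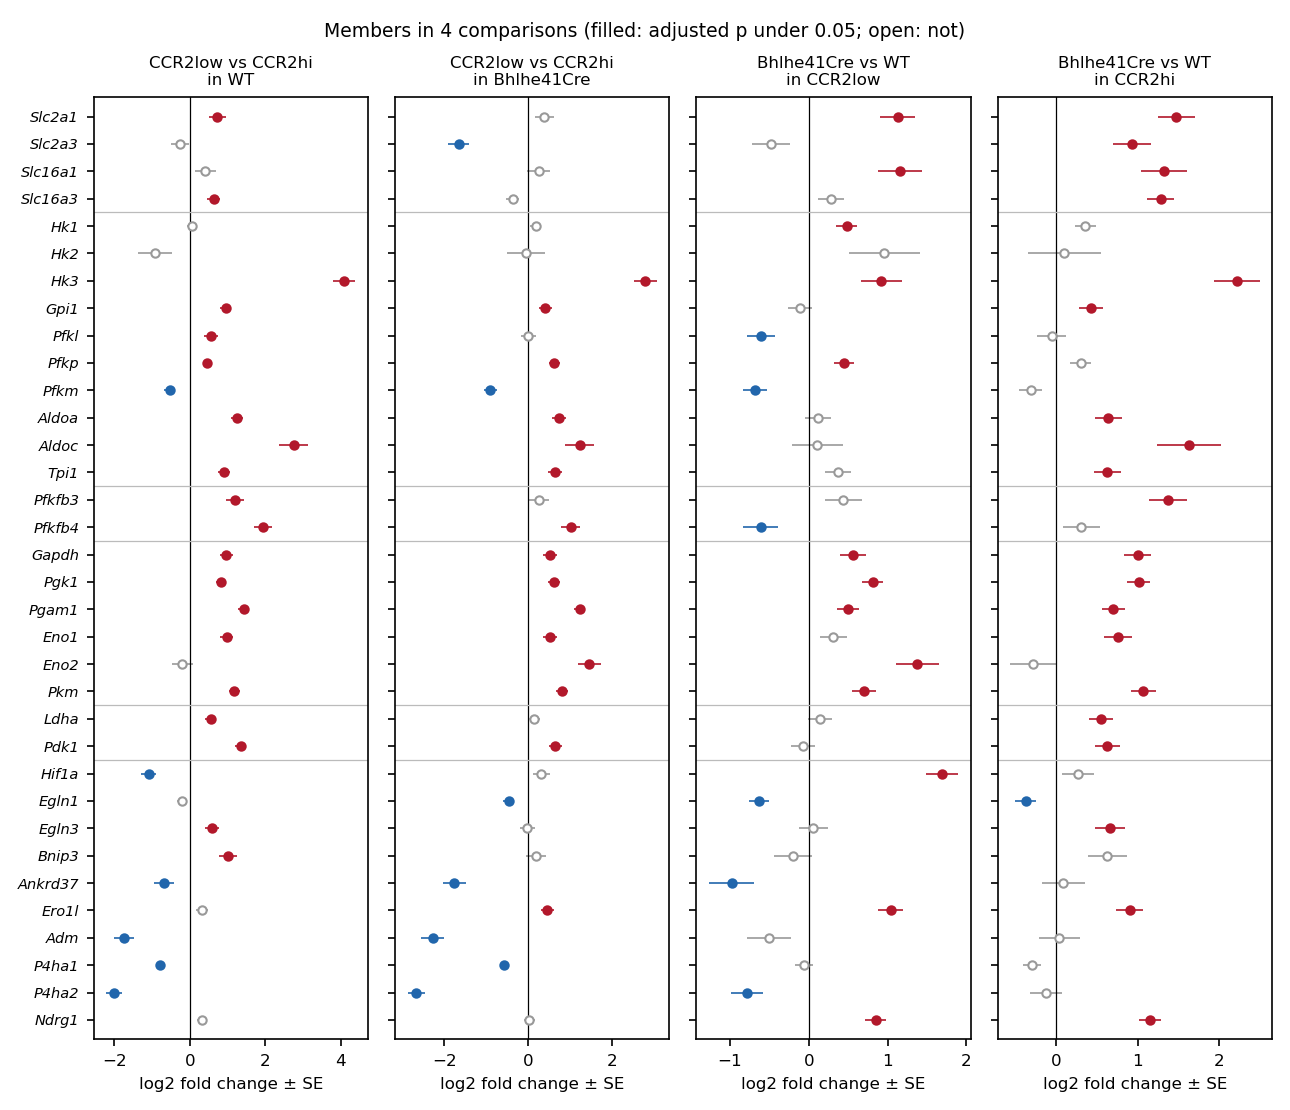
Log2 fold change ± SE (x axis, total-RNA scale) of the 34 members in 4 comparisons, in the order of their roles, with lines between roles; filled points have an adjusted p under 0.05, red higher and blue lower in the first group. Hk3 is farthest to the right between the gates (4.09 in WT, 2.80 in Bhlhe41Cre), Hif1a between genotypes in CCR2low (1.69), and P4ha2 farthest to the left between the gates (-2.01 and -2.67).

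Glucose enters cells through GLUT1 (Slc2a1) and the high-affinity GLUT3 (Slc2a3), and lactate crosses the membrane through MCT1 (Slc16a1) and MCT4 (Slc16a3), the last a lactate exporter of glycolytic cells. Slc2a1 and Slc16a1 were higher in Bhlhe41Cre than in WT in both gates, by 2.19- and 2.77-fold and by 2.23- and 2.49-fold. Slc2a3 and Slc16a3 were higher in Bhlhe41Cre in CCR2hi, and their gate differences differed between the genotypes. Of the 4 transporters 2 higher and 0 lower were called between the WT gates, and 0 higher and 1 lower between the Bhlhe41Cre gates. Between genotypes 2 higher and 0 lower were called in CCR2low and 4 higher and 0 lower in CCR2hi. Over all genes, 29.8% were higher and 30.0% lower, 24.9% and 29.1%, 16.4% and 26.7%, and 16.2% and 15.9% in the same order.

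Slc2a1 (chr4:119108711-119137983, plus strand, GRCm38) stood at 103, 109.7 and 95.4 CPM in CCR2low and 92.9, 43.5 and 49.2 in CCR2hi for WT, and at 221, 232 and 220.1 in CCR2low and 180.5, 184 and 149 in CCR2hi for Bhlhe41Cre. All 6 Bhlhe41Cre libraries were above all 6 WT libraries, and WT CCR2hi 1 was well above the other 2 libraries of its group. The log2 difference between genotypes was 1.13 ± 0.223 (SE, adjusted p = 0.00154) in CCR2low and 1.47 ± 0.226 (SE, adjusted p = 0.000389) in CCR2hi, and on the macrophage scale 1.23 and 0.27, neither called. Slc16a1 stood at 23.2, 25.5 and 30.6 CPM in CCR2low and 32.1, 13.9 and 13.9 in CCR2hi for WT, and at 69.2, 56.1 and 51.8 in CCR2low and 57.2, 51.6 and 40.3 in CCR2hi for Bhlhe41Cre. Again the genotypes did not overlap, and WT CCR2hi 1 was higher than the other WT libraries. Its genotype difference was 1.16 ± 0.279 (SE, adjusted p = 0.00494) in CCR2low and 1.32 ± 0.281 (SE, adjusted p = 0.0034) in CCR2hi, with 1.25 and 0.10 on the macrophage scale, not called. For Slc2a1 and Slc16a1 alike, the macrophage scale left the difference no smaller in CCR2low, though not called, and made it smaller in CCR2hi. The Slc2a1 call between the WT gates ended without WT CCR2hi 2 or 3 or any 1 Bhlhe41Cre CCR2hi library (adjusted p = 0.0541 to 0.0707) and with limma-trend on TPM (log2 0.45, adjusted p = 0.106).

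Slc2a3, a minor transporter here, stood at 6.55, 7.95 and 10.8 CPM in CCR2low and 13.1, 9.82 and 7.13 in CCR2hi for WT, and at 5.52, 7.25 and 5.35 in CCR2low and 22.2, 18.5 and 16.6 in CCR2hi for Bhlhe41Cre. Bhlhe41Cre CCR2hi lay above every other library, and the other 3 groups overlapped. CCR2low minus CCR2hi was -1.66 ± 0.244 (SE, adjusted p = 6.54e-05) in Bhlhe41Cre and -0.25 (adjusted p = 0.387) in WT, and the interaction was -1.41 ± 0.341 (SE, adjusted p = 0.0192). Slc16a3 stood at 157, 155 and 118 CPM in CCR2low and 102, 87.9 and 88.1 in CCR2hi for WT, and at 143, 159.8 and 219 in CCR2low and 219.8, 211 and 244 in CCR2hi for Bhlhe41Cre. WT CCR2low was above WT CCR2hi without overlap, whereas in Bhlhe41Cre the highest CCR2low library fell within the CCR2hi range. The gate difference was 0.63 ± 0.166 (SE, adjusted p = 0.00509) for WT and -0.37 (adjusted p = 0.0727) for Bhlhe41Cre, the interaction -1.0 ± 0.234 (SE, adjusted p = 0.0168), and the genotype difference in CCR2hi 1.28 ± 0.167 (SE, adjusted p = 0.000119). Interaction calls of Slc2a3 and Slc16a3 were absent on the macrophage scale (-0.19 and 0.18). The Slc2a3 call between genotypes in CCR2hi ended without Bhlhe41Cre CCR2hi 1 (adjusted p = 0.0506) and with limma-trend on TPM (adjusted p = 0.0587). The Slc2a3 call of the interaction ended without Bhlhe41Cre CCR2low 1 or 3 or any 1 Bhlhe41Cre CCR2hi library (adjusted p = 0.0542 to 0.0897) and with limma-trend on TPM (adjusted p = 0.0793). The Slc16a3 call between the WT gates ended with limma-trend on TPM (log2 0.23, adjusted p = 0.126). The Slc16a3 difference between the Bhlhe41Cre gates was called without Bhlhe41Cre CCR2low 3 (log2 -0.54, adjusted p = 0.00542). The Slc16a3 call of the interaction ended without WT CCR2low 2 or any 1 Bhlhe41Cre CCR2hi library (adjusted p = 0.0503 to 0.0901).

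**Figure D3:**
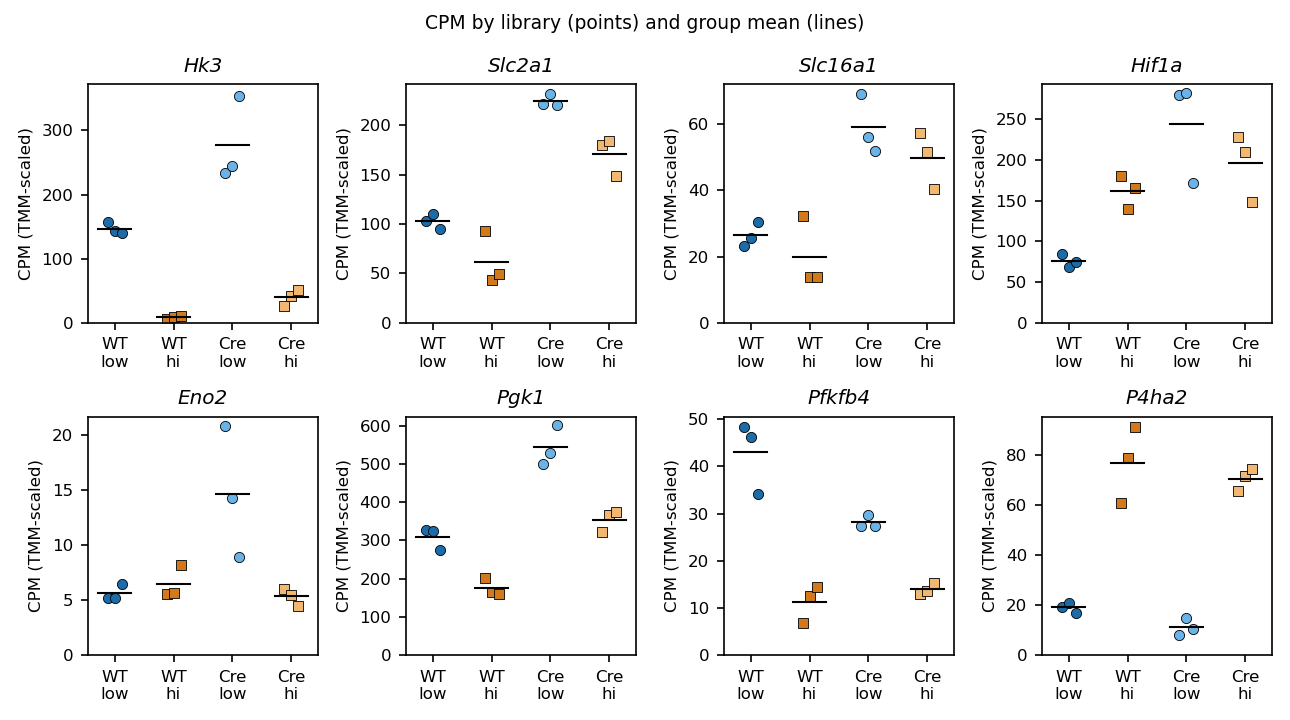
CPM (counts per 1000000 on TMM-scaled library sizes, y axis from 0) of 8 members in each library (points, 3 per group; lines are group means). Hk3 and Pfkfb4 are high in CCR2low and P4ha2 in CCR2hi in both genotypes, Slc2a1, Slc16a1 and Pgk1 are higher in Bhlhe41Cre than in WT of the same gate, and Hif1a and Eno2 are highest in Bhlhe41Cre CCR2low, where their 3 libraries spread from 172 to 282 CPM and from 8.88 to 20.8 CPM.

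Hexokinase traps glucose as glucose 6-phosphate; Hk1 is widespread, Hk2 is inducible, and Hk3 is the isoenzyme of myeloid cells. On total RNA Hk3 had the largest gate difference of the 34 members in both genotypes. It was 17-fold higher in CCR2low than in CCR2hi in WT and 6.98-fold higher in Bhlhe41Cre, and higher in Bhlhe41Cre than in WT by 1.89-fold in CCR2low and 4.61-fold in CCR2hi. It is also the only member higher in CCR2low on the macrophage scale, in both genotypes. On total RNA Hk1 was called only between genotypes in CCR2low (0.48 ± 0.133, SE, adjusted p = 0.0112), and Hk2 in none of the 5 comparisons, while both were lower in CCR2low on the macrophage scale in each genotype (Hk1 -3.11 and -1.84, Hk2 -4.40 and -2.08 in WT and Bhlhe41Cre).

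Hk3 (chr13:55005985-55021385, minus strand) stood at 157, 144 and 139.7 CPM in CCR2low and 5.42, 9.61 and 10.8 in CCR2hi for WT, and at 233, 244 and 354 in CCR2low and 25.9, 41.7 and 51.5 in CCR2hi for Bhlhe41Cre. None of the 4 groups overlapped, in the order WT CCR2hi, Bhlhe41Cre CCR2hi, WT CCR2low, Bhlhe41Cre CCR2low. CCR2low minus CCR2hi was 4.09 ± 0.298 (SE, adjusted p = 1.65e-07) for WT and 2.80 ± 0.276 (SE, adjusted p = 1.96e-06) for Bhlhe41Cre on total RNA. On the macrophage scale it was 1.06 (adjusted p = 0.000809) and 0.80 (adjusted p = 0.00677). Bhlhe41Cre minus WT was 0.92 ± 0.259 (SE, adjusted p = 0.012) in CCR2low and 2.21 ± 0.28 (SE, adjusted p = 9.73e-05) in CCR2hi, and 1.00 and 1.26 on the macrophage scale, both called. The interaction was -1.29 ± 0.375 (SE, adjusted p = 0.0403) on total RNA and -0.26 (adjusted p = 0.548) on the macrophage scale. The Hk3 call of the interaction ended without any 1 WT CCR2low library, WT CCR2hi 1 or 2, Bhlhe41Cre CCR2low 1 or 2 or Bhlhe41Cre CCR2hi 2 or 3 (log2 -1.38 to -0.83, adjusted p = 0.0503 to 0.186), with DESeq2 size factors (adjusted p = 0.0533), with no filter on low counts (adjusted p = 0.187) and with limma-trend on TPM (adjusted p = 0.0686).

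Hk2 stood at 69.5, 76.5 and 94.1 CPM in CCR2low and 307, 67.1 and 75.9 in CCR2hi for WT, and at 166, 176 and 125 in CCR2low and 176, 179 and 126 in CCR2hi for Bhlhe41Cre. WT CCR2hi 1 was several times above both other WT CCR2hi libraries, so that this group spread widely. The gate difference in WT was -0.91 (adjusted p = 0.0992), and the genotype difference 0.96 (adjusted p = 0.105) in CCR2low. In TPM, which is per length and allows levels of genes to be compared, Hk3 made up 52.7% ± 2.29 (SD, n = 3) of hexokinase transcripts in CCR2low and 5.83% ± 3.13 in CCR2hi for WT, and 57.3% ± 9.21 and 17.8% ± 6.53 for Bhlhe41Cre. Hk1 had the largest mean share in both CCR2hi groups, 51.9% ± 18 in WT and 44.3% ± 2.74 in Bhlhe41Cre, and in WT its range overlapped that of Hk2. The Hk1 difference between the Bhlhe41Cre gates was called without Bhlhe41Cre CCR2low 3 (log2 0.33, adjusted p = 0.0335). The Hk1 call between genotypes in CCR2low ended without Bhlhe41Cre CCR2low 2 (adjusted p = 0.06) and with limma-trend on TPM (adjusted p = 0.0914). The Hk1 difference between genotypes in CCR2low became 0.76 without Bhlhe41Cre CCR2low 3. The Hk1 difference between genotypes in CCR2hi was called without Bhlhe41Cre CCR2low 2 or 3 (log2 0.34 to 0.36, adjusted p = 0.0262 to 0.0378). The Hk2 difference between the WT gates was called without WT CCR2hi 2 or 3 (log2 -1.26 to -1.22, adjusted p = 0.0198 to 0.0285). The Hk2 difference between genotypes in CCR2low was called without WT CCR2hi 1 (log2 1.14, adjusted p = 0.000379). The Hk2 difference between genotypes in CCR2hi was called without WT CCR2hi 1 (log2 1.15, adjusted p = 0.00138).

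The next steps isomerise glucose 6-phosphate (Gpi1), add a second phosphate (phosphofructokinase, from the liver-type Pfkl, platelet-type Pfkp and muscle-type Pfkm subunits), split the sugar (Aldoa, Aldoc) and interconvert the pieces (Tpi1). Gpi1, Pfkp, Aldoa, Aldoc and Tpi1 were higher in CCR2low in both genotypes, and Pfkm was lower in both. Over the 10 genes of upper glycolysis, hexokinases included, 7 higher and 1 lower were called between the WT gates. Between the Bhlhe41Cre gates 6 higher and 1 lower were called, between genotypes in CCR2low 3 higher and 2 lower, and in CCR2hi 5 higher and 0 lower. Over all genes, 29.8% were higher and 30.0% lower, 24.9% and 29.1%, 16.4% and 26.7%, and 16.2% and 15.9% in the same order. All upper glycolysis genes called higher in CCR2low except Hk3 had values below 0 on the macrophage scale.

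Aldoa, the abundant aldolase, stood at 1341, 1065 and 1086 CPM in CCR2low and 463, 508 and 496 in CCR2hi for WT, and at 1095, 1121 and 1586 in CCR2low and 675, 755 and 855 in CCR2hi for Bhlhe41Cre. CCR2low lay above CCR2hi in both genotypes, by 1.25 ± 0.167 (SE, adjusted p = 2.38e-05) for WT and 0.73 ± 0.165 (SE, adjusted p = 0.00196) for Bhlhe41Cre. Aldoc stood at 6.44, 5.83 and 4.74 CPM in CCR2low and 0.44, 0.89 and 1.17 in CCR2hi for WT, and at 4.50, 5.45 and 8.47 in CCR2low and 2.45, 1.67 and 3.71 in CCR2hi for Bhlhe41Cre. CCR2low was above CCR2hi without overlap in each genotype. Its gate difference was 2.76 ± 0.384 (SE, adjusted p = 3.51e-05) for WT and 1.23 ± 0.34 (SE, adjusted p = 0.00757) for Bhlhe41Cre, and its genotype difference in CCR2hi was 1.63 ± 0.393 (SE, adjusted p = 0.00682). Pfkm stood at 21.7, 18.1 and 15.6 CPM in CCR2low and 23.02, 28.6 and 28.3 in CCR2hi for WT, and at 11.1, 11.1 and 12.4 in CCR2low and 20.7, 21.6 and 22.2 in CCR2hi for Bhlhe41Cre. In each genotype CCR2low was below CCR2hi without overlap, with a difference of -0.53 ± 0.146 (SE, adjusted p = 0.00664) for WT and -0.90 ± 0.149 (SE, adjusted p = 0.000182) for Bhlhe41Cre, and Bhlhe41Cre CCR2low was below WT CCR2low (-0.68, adjusted p = 0.00297). Pfkp stood at 103, 104 and 87.2 CPM in CCR2low and 77.8, 68.96 and 65.9 in CCR2hi for WT, and at 138, 146 and 119 in CCR2low and 87.5, 92.3 and 81.3 in CCR2hi for Bhlhe41Cre. It was higher in Bhlhe41Cre than in WT in CCR2low by 0.45 ± 0.124 (SE, adjusted p = 0.0101). The Pfkp call between the WT gates ended without any 1 Bhlhe41Cre CCR2hi library (log2 0.26, adjusted p = 0.0863 to 0.0989) and with limma-trend on TPM (log2 0.08, adjusted p = 0.648). The Pfkp call between genotypes in CCR2low ended with limma-trend on TPM (log2 0.27, adjusted p = 0.14). The Pfkp difference between genotypes in CCR2low became 0.70 without Bhlhe41Cre CCR2low 3. The Pfkm difference between the WT gates became -0.84 without WT CCR2hi 1.

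Gpi1 was 0.95 (adjusted p = 0.000111) higher in CCR2low in WT and 0.41 (adjusted p = 0.034) in Bhlhe41Cre, and Tpi1 0.91 (adjusted p = 0.000331) and 0.65 (adjusted p = 0.00413) (log2). Pfkl was higher in CCR2low in WT (0.56, adjusted p = 0.0152), and in CCR2low it was lower in Bhlhe41Cre (-0.60, adjusted p = 0.0155). Among phosphofructokinase transcripts by TPM, Pfkl and Pfkp had shares of 46.6% ± 2.49 and 45.1% ± 2.27 in WT CCR2low, which overlapped. In Bhlhe41Cre CCR2low they were 33.7% ± 7.90 and 60.6% ± 7.85. Pfkm made up 8.29% ± 0.838 and 5.75% ± 0.057 in the 2 CCR2low groups and 15.6% ± 1.12 and 12.5% ± 0.354 in WT and Bhlhe41Cre CCR2hi. The Gpi1 call between the Bhlhe41Cre gates ended without Bhlhe41Cre CCR2low 3 or Bhlhe41Cre CCR2hi 1 or 2 (log2 0.26 to 0.39, adjusted p = 0.0796 to 0.0889), with no TMM factor (log2 0.19, adjusted p = 0.219), without both Bhlhe41Cre libraries numbered 3 (adjusted p = 0.142) and with limma-trend on TPM (log2 0.18, adjusted p = 0.159). The Gpi1 call between genotypes in CCR2hi ended without WT CCR2low 1 or 2, WT CCR2hi 1 or 3 or any 1 Bhlhe41Cre CCR2hi library (adjusted p = 0.0512 to 0.117), with no filter on low counts (adjusted p = 0.0925) and with replicate numbers as a block (adjusted p = 0.0556). The Pfkl call between the WT gates ended without WT CCR2hi 1 or any 1 Bhlhe41Cre CCR2hi library (log2 0.24 to 0.36, adjusted p = 0.111 to 0.286) and with limma-trend on TPM (log2 0.21, adjusted p = 0.218). The Pfkl call between genotypes in CCR2low ended without WT CCR2low 1, WT CCR2hi 1, Bhlhe41Cre CCR2low 1 or 2 or any 1 Bhlhe41Cre CCR2hi library (adjusted p = 0.0515 to 0.0974) and with only the libraries compared (adjusted p = 0.0605).

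Fructose 2,6-bisphosphate is the strongest activator of phosphofructokinase; Pfkfb3 and Pfkfb4 make and degrade it, Pfkfb3 with a strong bias to making it. Both were higher in CCR2low in WT, Pfkfb4 also in Bhlhe41Cre, and Pfkfb3 was higher in Bhlhe41Cre CCR2hi than in WT CCR2hi. Pfkfb3 stood at 102, 111 and 135 CPM in CCR2low and 64.6, 43.8 and 43.9 in CCR2hi for WT, and at 178, 188 and 108 in CCR2low and 167, 114 and 113 in CCR2hi for Bhlhe41Cre. The WT gates did not overlap and the Bhlhe41Cre gates did. Its gate difference was 1.19 ± 0.234 (SE, adjusted p = 0.000617) for WT and 0.26 (adjusted p = 0.356) for Bhlhe41Cre, its genotype difference 1.37 ± 0.235 (SE, adjusted p = 0.000777) in CCR2hi and 0.44 (adjusted p = 0.136) in CCR2low. Pfkfb4 stood at 48.5, 46.3 and 34.2 CPM in CCR2low and 6.70, 12.6 and 14.4 in CCR2hi for WT, and at 27.5, 29.8 and 27.4 in CCR2low and 12.9, 13.7 and 15.3 in CCR2hi for Bhlhe41Cre. CCR2low was above CCR2hi in both genotypes, and WT CCR2low was the highest group. The gate difference was 1.94 ± 0.231 (SE, adjusted p = 8.65e-06) for WT and 1.02 ± 0.227 (SE, adjusted p = 0.00186) for Bhlhe41Cre, and Bhlhe41Cre minus WT in CCR2low was -0.61 ± 0.221 (SE, adjusted p = 0.0407). Both genes were lower in CCR2low on the macrophage scale (Pfkfb3 -2.06 and -1.76, Pfkfb4 -1.09 and -0.99 in WT and Bhlhe41Cre). The Pfkfb3 difference between genotypes in CCR2low was called without WT CCR2hi 1, Bhlhe41Cre CCR2low 3 or Bhlhe41Cre CCR2hi 1 (log2 0.63 to 0.81, adjusted p = 0.0115 to 0.0395). The Pfkfb4 call between genotypes in CCR2low ended without WT CCR2low 1 or 2, any 1 Bhlhe41Cre CCR2low library or any 1 Bhlhe41Cre CCR2hi library (adjusted p = 0.0673 to 0.191), with DESeq2 size factors (adjusted p = 0.0654), with no filter on low counts (adjusted p = 0.107), without both Bhlhe41Cre libraries numbered 3 (adjusted p = 0.0908) and in DESeq2 (adjusted p = 0.0597).

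Lower glycolysis yields the ATP and NADH: Gapdh oxidises the triose, Pgk1 and pyruvate kinase (Pkm) each make ATP, and Pgam1 and enolase (Eno1 in most cells, Eno2 best known from neurons) carry the carbon between them. Gapdh, Pgk1, Pgam1, Eno1 and Pkm were higher in CCR2low in both genotypes, and the same 5 were higher in Bhlhe41Cre in CCR2hi. All of them but Eno1 were also higher in Bhlhe41Cre in CCR2low. Eno2 had a pattern of its own. Of the 6 genes 5 higher and 0 lower were called between the WT gates, and 6 higher and 0 lower between the Bhlhe41Cre gates. Between genotypes 5 higher and 0 lower were called in CCR2low and 5 higher and 0 lower in CCR2hi. Over all genes, 29.8% were higher and 30.0% lower, 24.9% and 29.1%, 16.4% and 26.7%, and 16.2% and 15.9% in the same order.

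Pgk1 stood at 328, 326 and 275 CPM in CCR2low and 202, 165 and 160.1 in CCR2hi for WT, and at 499, 529 and 602 in CCR2low and 322, 366 and 374 in CCR2hi for Bhlhe41Cre. Every Bhlhe41Cre library of a gate was above every WT library of it, by 0.81 ± 0.135 (SE, adjusted p = 0.000507) in CCR2low and 1.01 ± 0.136 (SE, adjusted p = 0.000143) in CCR2hi. Pgam1 stood at 226, 222 and 209 CPM in CCR2low and 89.6, 81.5 and 72.96 in CCR2hi for WT, and at 266, 295 and 369 in CCR2low and 116, 140.0 and 139 in CCR2hi for Bhlhe41Cre. The gates were apart by 1.43 ± 0.143 (SE, adjusted p = 1.71e-06) for WT and 1.23 ± 0.142 (SE, adjusted p = 7.87e-06) for Bhlhe41Cre, with no overlap of any CCR2low and CCR2hi libraries. Pkm stood at 1892, 1655 and 1504 CPM in CCR2low and 756, 768 and 702 in CCR2hi for WT, and at 2460.0, 2517 and 3222 in CCR2low and 1399, 1620.0 and 1662 in CCR2hi for Bhlhe41Cre. Its gate difference was 1.18 ± 0.149 (SE, adjusted p = 1.44e-05) for WT and 0.81 ± 0.148 (SE, adjusted p = 0.000406) for Bhlhe41Cre, and its genotype difference was 0.70 (adjusted p = 0.0023) in CCR2low and 1.07 (adjusted p = 0.000183) in CCR2hi. Gapdh and Eno1 lay 0.97 and 0.98 apart between the WT gates and 0.53 and 0.53 between the Bhlhe41Cre gates (log2), all called. These 5 genes were lower in CCR2low in both genotypes on the macrophage scale, from -2.24 for Gapdh to -1.78 for Pgam1 in WT. In CCR2hi their genotype differences on that scale lay between -0.40 and 0.00, and none was called, though without WT CCR2hi 1 Gapdh (0.43, adjusted p = 0.0331) and Pgk1 (0.48, adjusted p = 0.0139) were. The Gapdh call between the Bhlhe41Cre gates ended without Bhlhe41Cre CCR2hi 1 (adjusted p = 0.0534), with no TMM factor (log2 0.32, adjusted p = 0.0735) and without both Bhlhe41Cre libraries numbered 3 (adjusted p = 0.0676). The Gapdh call between genotypes in CCR2low ended without WT CCR2low 2 or 3 (adjusted p = 0.0562 to 0.062) and without both Bhlhe41Cre libraries numbered 3 (log2 0.36, adjusted p = 0.0702). The Eno1 call between the Bhlhe41Cre gates ended without Bhlhe41Cre CCR2hi 1 (adjusted p = 0.0642), with no TMM factor (log2 0.31, adjusted p = 0.0869) and with limma-trend on TPM (log2 0.27, adjusted p = 0.0536). The Eno1 difference between genotypes in CCR2low was called without WT CCR2hi 1 or any 1 Bhlhe41Cre CCR2hi library (log2 0.50, adjusted p = 0.0212 to 0.0355).

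Eno2 (chr6:124760053-124769673, minus strand) stood at 5.22, 5.18 and 6.48 CPM in CCR2low and 5.52, 5.62 and 8.20 in CCR2hi for WT, and at 20.8, 14.2 and 8.88 in CCR2low and 5.99, 5.49 and 4.49 in CCR2hi for Bhlhe41Cre. Bhlhe41Cre CCR2low was above every other library, and the other 3 groups overlapped. Between genotypes in CCR2low it differed by 1.38 ± 0.276 (SE, adjusted p = 0.00163) and between the Bhlhe41Cre gates by 1.46 ± 0.276 (SE, adjusted p = 0.000536). Between the WT gates it was -0.20 (adjusted p = 0.562), so that the interaction was 1.66 ± 0.392 (SE, adjusted p = 0.0178), and 2.73 (adjusted p = 0.0105) on the macrophage scale. Eno2 remained a minor enolase, at 0.687% ± 0.256 of enolase TPM in CCR2low and 1.46% ± 0.351 in CCR2hi for WT, and 1.90% ± 1.10 and 0.861% ± 0.35 for Bhlhe41Cre. The Eno2 call of the interaction ended with limma-trend on TPM (adjusted p = 0.0691).

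Pyruvate is reduced to lactate by LDHA or enters the mitochondria unless PDK1 switches off pyruvate dehydrogenase. Pdk1 was higher in CCR2low in both genotypes, and Ldha in WT. Ldha stood at 891, 831 and 724 CPM in CCR2low and 601, 544 and 528 in CCR2hi for WT, and at 761, 839 and 1101 in CCR2low and 745, 855 and 853 in CCR2hi for Bhlhe41Cre. Its WT gates did not overlap, and its Bhlhe41Cre gates did. The gate difference was 0.55 ± 0.152 (SE, adjusted p = 0.00682) for WT and 0.14 (adjusted p = 0.46) for Bhlhe41Cre, and in CCR2hi Bhlhe41Cre was above WT by 0.55 ± 0.152 (SE, adjusted p = 0.0141). Pdk1 stood at 36.6, 46.7 and 56.9 CPM in CCR2low and 18.3, 18.6 and 18.1 in CCR2hi for WT, and at 44.9, 42.9 and 46.1 in CCR2low and 31.4, 25.6 and 28.1 in CCR2hi for Bhlhe41Cre. CCR2low was above CCR2hi in both genotypes, by 1.35 ± 0.153 (SE, adjusted p = 5.5e-06) for WT and 0.65 ± 0.151 (SE, adjusted p = 0.00231) for Bhlhe41Cre. Between genotypes it was -0.07 (adjusted p = 0.746) in CCR2low and 0.63 (adjusted p = 0.00731) in CCR2hi, and the interaction was -0.69 ± 0.213 (SE, adjusted p = 0.0495). Gate differences on the macrophage scale were -2.66 and -1.89 for Ldha and -1.81 and -1.38 for Pdk1. The Ldha call between the WT gates ended without any 1 Bhlhe41Cre CCR2hi library (log2 0.34, adjusted p = 0.0652 to 0.0705) and with limma-trend on TPM (log2 0.18, adjusted p = 0.115). The Ldha call between genotypes in CCR2hi ended without WT CCR2hi 2 or 3 (adjusted p = 0.0508 to 0.0522). The Pdk1 call between the Bhlhe41Cre gates ended with limma-trend on TPM (adjusted p = 0.0548). The Pdk1 call between genotypes in CCR2hi ended without Bhlhe41Cre CCR2hi 1 (adjusted p = 0.0503) and with limma-trend on TPM (adjusted p = 0.1). The Pdk1 call of the interaction ended without WT CCR2low 2 or 3, any 1 WT CCR2hi library, any 1 Bhlhe41Cre CCR2low library or any 1 Bhlhe41Cre CCR2hi library (log2 -0.71 to -0.40, adjusted p = 0.0767 to 0.326), with DESeq2 size factors (adjusted p = 0.0909), with no filter on low counts (adjusted p = 0.253), without both Bhlhe41Cre libraries numbered 3 (adjusted p = 0.0696), with limma-trend on TPM (adjusted p = 0.314), in DESeq2 (adjusted p = 0.0729), with replicate numbers as a block (adjusted p = 0.0724) and with the numbers as a block within genotype (adjusted p = 0.0553).

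The HIF group holds 10 genes: Hif1a, Egln1, Egln3, Bnip3, Ankrd37, Ero1l, Adm, P4ha1, P4ha2 and Ndrg1. Between the WT gates 2 higher and 5 lower of these 10 were called, against 29.8% and 30.0% of all genes. Between the Bhlhe41Cre gates 1 higher and 5 lower were called, against 24.9% and 29.1%. The medians of these 10 were -0.44 and -0.24. Adm (adrenomedullin, a vasodilator peptide), P4ha1 and P4ha2 (collagen prolyl 4-hydroxylases) and Ankrd37 were lower in CCR2low in both genotypes. The macrophage scale moved the median of all genes by -3.15 (WT) and -2.02 (Bhlhe41Cre) between the gates. Genes lower in CCR2low on total RNA, these 4 included, are therefore lower on that scale by construction. Hif1a itself was lower in CCR2low in WT but not in Bhlhe41Cre. Between genotypes 3 higher and 3 lower were called in CCR2low and 3 higher and 1 lower in CCR2hi. Of all genes, 16.4% were higher and 26.7% lower in CCR2low, and 16.2% and 15.9% in CCR2hi.

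Hif1a (chr12:73901375-73947530, plus strand), the oxygen-regulated HIF subunit, stood at 84.3, 68.95 and 74.6 CPM in CCR2low and 180.4, 140.0 and 165 in CCR2hi for WT, and at 279.7, 282 and 172 in CCR2low and 228, 210.1 and 149 in CCR2hi for Bhlhe41Cre. WT CCR2low was below every other library, and the other 3 groups overlapped. CCR2low minus CCR2hi was -1.09 ± 0.204 (SE, adjusted p = 0.000435) for WT and 0.32 (adjusted p = 0.197) for Bhlhe41Cre, and the interaction was 1.41 ± 0.286 (SE, adjusted p = 0.00872), or 2.59 (adjusted p = 0.012) on the macrophage scale. In CCR2low Bhlhe41Cre was above WT by 1.69 ± 0.207 (SE, adjusted p = 9.12e-05), 3.22-fold, and by 1.81 (adjusted p = 0.00677) on the macrophage scale. In CCR2hi the genotypes differed by 0.27 (adjusted p = 0.319). Hypoxia acts on HIF1α mainly through the protein, which was not measured. The Hif1a difference between the Bhlhe41Cre gates was called without Bhlhe41Cre CCR2low 3 (log2 0.55, adjusted p = 0.0195).

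Of the prolyl hydroxylases, Egln1 was lower in Bhlhe41Cre than in WT in both gates (-0.63, adjusted p = 0.00193 in CCR2low, -0.37, adjusted p = 0.0417 in CCR2hi) and lower in CCR2low in Bhlhe41Cre (-0.46, adjusted p = 0.00801). In WT it stood at 81.1, 82.4 and 79.4 CPM in CCR2low and 87.3, 96.3 and 96.2 in CCR2hi, so the direction was the same. This WT difference was not called in the main fit but was in 7 of 22 alternative settings, and the Egln1 interaction in 0 of 21. Egln3 was higher in CCR2low in WT (0.58, adjusted p = 0.0151) and higher in Bhlhe41Cre in CCR2hi (0.66, adjusted p = 0.0149). Egln1 made up 79.4% ± 1.13, 87% ± 1.72, 70.7% ± 2.82 and 76.2% ± 3.21 of the TPM of this pair, the first 2 for WT CCR2low and CCR2hi and the last 2 for Bhlhe41Cre CCR2low and CCR2hi. Bnip3, a mitophagy receptor, was higher in CCR2low in WT (1.02, adjusted p = 0.00256) and was not called elsewhere. The Egln1 call between the Bhlhe41Cre gates ended with no filter on low counts (adjusted p = 0.125). The Egln1 call between genotypes in CCR2hi ended without any 1 WT CCR2low library, WT CCR2hi 2 or 3, Bhlhe41Cre CCR2low 2 or Bhlhe41Cre CCR2hi 1 or 2 (adjusted p = 0.0519 to 0.151), with no TMM factor (adjusted p = 0.1) and with only the libraries compared (adjusted p = 0.0702). The Egln3 call between the WT gates ended without WT CCR2hi 1 or any 1 Bhlhe41Cre CCR2hi library (log2 0.22 to 0.37, adjusted p = 0.113 to 0.326) and with limma-trend on TPM (log2 0.21, adjusted p = 0.271). The Egln3 call between genotypes in CCR2hi ended without WT CCR2hi 1 or Bhlhe41Cre CCR2hi 1 (adjusted p = 0.0521 to 0.0566). The Bnip3 call between the WT gates ended without WT CCR2hi 1 (log2 0.63, adjusted p = 0.0519) and with limma-trend on TPM (log2 0.58, adjusted p = 0.0796). The Bnip3 difference between genotypes in CCR2hi was called without WT CCR2low 3 (log2 0.63, adjusted p = 0.0216).

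P4ha2 stood at 19.2, 20.97 and 16.9 CPM in CCR2low and 60.7, 78.5 and 91 in CCR2hi for WT, and at 8.03, 14.6 and 10.5 in CCR2low and 65.5, 71.4 and 74.4 in CCR2hi for Bhlhe41Cre. No CCR2low library reached any CCR2hi library, and the difference was -2.01 ± 0.203 (SE, adjusted p = 1.81e-06) for WT and -2.67 ± 0.21 (SE, adjusted p = 3.6e-07) for Bhlhe41Cre. Adm stood at 5.22, 6.49 and 5.51 CPM in CCR2low and 15.4, 22.4 and 19.7 in CCR2hi for WT, and at 4.28, 5.73 and 2.12 in CCR2low and 22.01, 17.04 and 19.9 in CCR2hi for Bhlhe41Cre. The gates were apart in the same way, by -1.74 ± 0.267 (SE, adjusted p = 8.3e-05) for WT and -2.28 ± 0.275 (SE, adjusted p = 1.19e-05) for Bhlhe41Cre. P4ha1 stood at 126, 123 and 105 CPM in CCR2low and 201, 195 and 218 in CCR2hi for WT, and at 110.1, 117 and 113 in CCR2low and 163, 173 and 167 in CCR2hi for Bhlhe41Cre. Its gate differences were -0.79 ± 0.109 (SE, adjusted p = 3.1e-05) and -0.57 ± 0.109 (SE, adjusted p = 0.000596). Fibroblasts also express collagen hydroxylases, and in both genotypes fibroblast genes were also higher in CCR2hi. Their summed share was 9.64 to 10.5% of counts in WT CCR2hi and 0.907 to 1.29% in WT CCR2low, with 16 of 16 called, and 4.91 to 6.21% and 0.471 to 0.914% in the CCR2hi and CCR2low libraries of Bhlhe41Cre. In WT CCR2hi endothelial genes were also at higher shares (0.172 to 0.298% against 0.0697 to 0.086%), as were mural genes (0.181 to 0.201% against 0.0521 to 0.0574%). Between genotypes in CCR2hi 8 of 16 fibroblast genes were lower in Bhlhe41Cre, while P4ha2, Adm and P4ha1 were not called. Every P4ha1 library of Bhlhe41Cre CCR2hi was still below every library of WT CCR2hi. Under the alternative settings this P4ha1 difference was called in 5 of 21, and those of P4ha2 and Adm in 0 of 21. In CCR2low 11 of 16 fibroblast genes were lower in Bhlhe41Cre, and of P4ha2, Adm and P4ha1 only P4ha2 was called, lower. The part of fibroblast, endothelial and mural cells in these differences was not tested. Ankrd37, a small ankyrin protein induced by HIF, was -0.68 (adjusted p = 0.0408) between the WT gates, -1.76 (adjusted p = 0.000143) between the Bhlhe41Cre gates and -0.98 (adjusted p = 0.0145) between genotypes in CCR2low. The Ankrd37 call between the WT gates ended without WT CCR2low 1 or 3 or WT CCR2hi 2 or 3 (adjusted p = 0.102 to 0.133). The Ankrd37 difference between the WT gates became -1.08 without WT CCR2hi 1. The Ankrd37 call between genotypes in CCR2low ended without WT CCR2low 2, Bhlhe41Cre CCR2low 1 or 3 or Bhlhe41Cre CCR2hi 1 (adjusted p = 0.052 to 0.0702), with only the libraries compared (adjusted p = 0.0502) and with limma-trend on TPM (adjusted p = 0.0552). The P4ha2 call between genotypes in CCR2low ended without Bhlhe41Cre CCR2low 3 (adjusted p = 0.0583) and with only the libraries compared (adjusted p = 0.0504).

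Ero1l, an endoplasmic reticulum oxidase, stood at 26.4, 28.1 and 33.1 CPM in CCR2low and 27.5, 20.4 and 22.3 in CCR2hi for WT, and at 66.4, 65.6 and 47.9 in CCR2low and 44.6, 46.4 and 39.6 in CCR2hi for Bhlhe41Cre. All Bhlhe41Cre libraries were above all WT libraries, by 1.04 ± 0.162 (SE, adjusted p = 0.000347) in CCR2low and 0.90 ± 0.162 (SE, adjusted p = 0.00117) in CCR2hi. Ndrg1, a stress- and hypoxia-induced gene, stood at 154, 172 and 173 CPM in CCR2low and 144, 135 and 119.8 in CCR2hi for WT, and at 344, 289.7 and 268 in CCR2low and 334, 289 and 263 in CCR2hi for Bhlhe41Cre. Again the genotypes did not overlap, with differences of 0.85 ± 0.136 (SE, adjusted p = 0.00039) and 1.15 ± 0.136 (SE, adjusted p = 6.13e-05) in CCR2low and CCR2hi. On the macrophage scale, Ero1l was 1.14 (adjusted p = 0.0414) and Ndrg1 0.95 (adjusted p = 0.0662) in CCR2low, and -0.20 and 0.09 in CCR2hi, the last 2 not called. The Ero1l call between the Bhlhe41Cre gates ended without Bhlhe41Cre CCR2low 1 or 2 or any 1 Bhlhe41Cre CCR2hi library (adjusted p = 0.0504 to 0.11), with no TMM factor (log2 0.26, adjusted p = 0.237) and with limma-trend on TPM (log2 0.20, adjusted p = 0.432). The Ero1l call between genotypes in CCR2hi ended with limma-trend on TPM (log2 0.47, adjusted p = 0.0907).

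A ratio of 2 isoenzymes within a library does not depend on how the library is scaled, apart from the pseudocount. Such a ratio still depends on the mix of cells in the library, and macrophage and fibroblast genes differed between the gates. The part of other cells in the ratios was not tested. For 11 pairs the log2 ratio of TPM (pseudocount 0.1) was compared between gates and between genotypes by an exact two-sided permutation test over the 12 libraries, stratified by the other factor (400 permutations, smallest p 0.005), with Benjamini-Hochberg adjustment over the 22 tests. Between gates 6 of 11 ratios were called. In CCR2low Hk3 was higher relative to Hk1 by 3.31 (adjusted p = 0.0138) on average, 4.01 in WT and 2.61 in Bhlhe41Cre. P4ha2 was lower relative to P4ha1, with -1.68 (adjusted p = 0.0138), and Slc2a3 against Slc2a1, with -1.42 (adjusted p = 0.0138). Pfkm was lower relative to Pfkl, with -0.96 (adjusted p = 0.0138), while Aldoc was higher relative to Aldoa, with 1.00 (adjusted p = 0.0138), and Egln3 against Egln1, with 0.60 (adjusted p = 0.0138). The ratio of Pfkfb4 to Pfkfb3 was 0.79 (adjusted p = 0.05) and was not called. The Aldoc to Aldoa call ended without any 1 WT CCR2low library (0.96 to 1.03, adjusted p = 0.05 to 0.055). The Pfkfb4 to Pfkfb3 ratio was called without WT CCR2hi 3, Bhlhe41Cre CCR2low 1 or Bhlhe41Cre CCR2hi 3 (0.88 to 0.96, adjusted p = 0.0138 to 0.0367).

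Between genotypes 4 of 11 ratios were called. Bhlhe41Cre had less Slc2a3 per Slc2a1 (-1.18, adjusted p = 0.0138), more Hk3 per Hk1 (1.18, adjusted p = 0.0367), less Pfkfb4 per Pfkfb3 (-1.03, adjusted p = 0.044) and more Egln3 per Egln1 (0.86, adjusted p = 0.0138). Within CCR2low and CCR2hi these 4 differences were -1.71 and -0.66 (Slc2a3), 0.48 and 1.88 (Hk3), -1.08 and -0.99 (Pfkfb4) and 0.67 and 1.06 (Egln3). The ratio of Eno2 to Eno1 went opposite ways: CCR2low minus CCR2hi was -1.12 in WT and 1.01 in Bhlhe41Cre, so that the average over genotypes was -0.06 (adjusted p = 0.925). The ratios of Slc16a3 to Slc16a1, Hk2 to Hk1 and Pfkp to Pfkl were not called for either factor. The Hk3 to Hk1 call ended without any 1 WT CCR2low library, WT CCR2hi 1 or Bhlhe41Cre CCR2low 3 (1.02 to 1.20, adjusted p = 0.05 to 0.077). The Pfkfb4 to Pfkfb3 call ended without any 1 WT CCR2low library, WT CCR2hi 2 or 3, Bhlhe41Cre CCR2low 1 or 2 or Bhlhe41Cre CCR2hi 1 or 2 (-1.14 to -0.86, adjusted p = 0.05 to 0.08) and on CPM in place of TPM (-1.0, adjusted p = 0.055). The Slc16a3 to Slc16a1 ratio was called without WT CCR2hi 1 (-0.69, adjusted p = 0.0367). The Hk2 to Hk1 ratio was called without WT CCR2hi 1 (0.67, adjusted p = 0.0122). The Pfkp to Pfkl ratio was called without WT CCR2hi 1 or Bhlhe41Cre CCR2hi 3 (0.57 to 0.58, adjusted p = 0.03 to 0.033) and on CPM in place of TPM (0.72, adjusted p = 0.033).

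**Figure D4:**
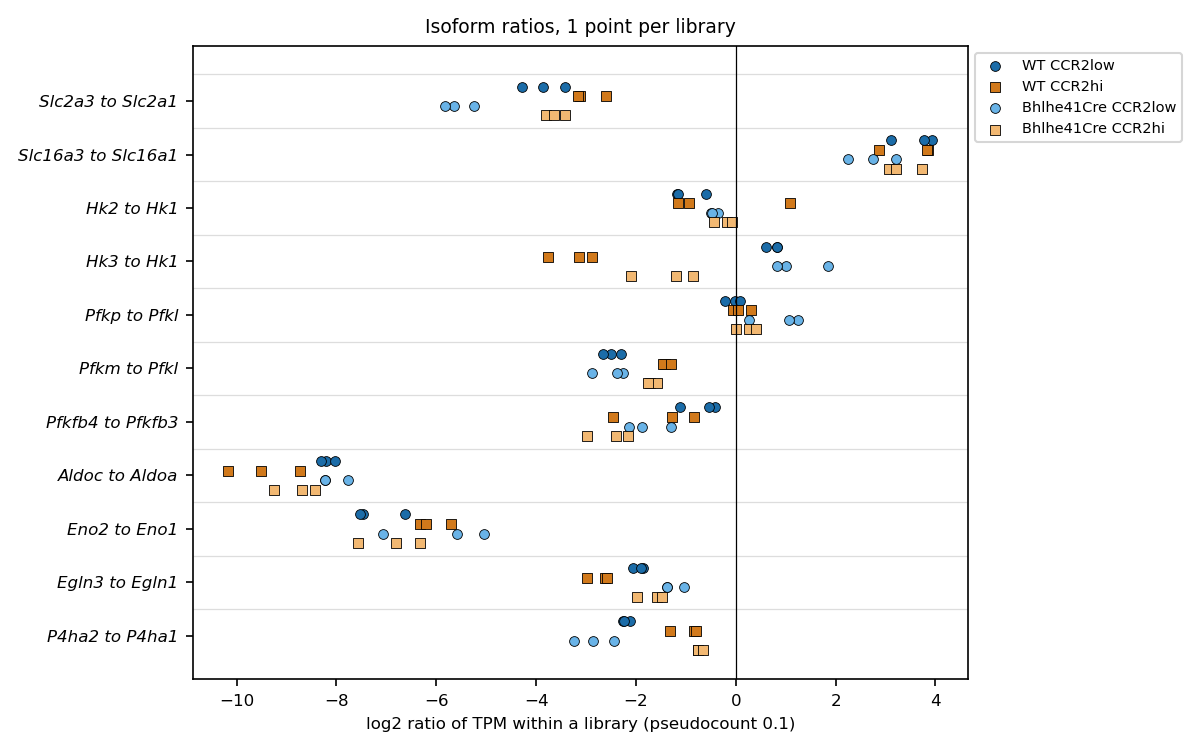
Log2 ratio of TPM of 11 isoenzyme pairs within each library (x axis, pseudocount 0.1; 3 points per group, circles CCR2low and squares CCR2hi, dark WT and light Bhlhe41Cre). Hk3 to Hk1 and P4ha2 to P4ha1 separate the gates in both genotypes, Slc2a3 to Slc2a1 is lowest in Bhlhe41Cre CCR2low, and Hk2 to Hk1 has 1 WT CCR2hi library far from the other 2.

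The rest of glycolysis and pyruvate handling was described by 30 further genes, of which 24 passed the filter. Between the WT gates 10 higher and 2 lower were called, between the Bhlhe41Cre gates 5 higher and 5 lower, between genotypes in CCR2low 1 higher and 10 lower, in CCR2hi 4 higher and 1 lower and in the interaction 0 higher and 5 lower, with medians of 0.41, 0.00, -0.37, -0.01 and -0.45. Shares called over all genes were 29.8% higher and 30.0% lower, 24.9% and 29.1%, 16.4% and 26.7%, 16.2% and 15.9%, and 4.74% and 7.85% in the same order, and of this list 41.7% and 8.33%, 20.8% and 20.8%, 4.17% and 41.7%, 16.7% and 4.17% and 0% and 20.8%. The monocarboxylate transporter Slc16a7 (MCT2) was 2.32 (adjusted p = 4.1e-08) higher in CCR2low in WT and 2.02 (adjusted p = 1.22e-07) in Bhlhe41Cre, and the urate and sugar transporter Slc2a9 2.02 (adjusted p = 1.9e-07) and 1.26 (adjusted p = 8.4e-06). Mpc1, a subunit of the mitochondrial pyruvate carrier, was 1.10 (adjusted p = 5.85e-05) and 0.66 (adjusted p = 0.00333), and higher in Bhlhe41Cre in CCR2hi by 0.63 (adjusted p = 0.00998). Slc2a6, a lysosomal sugar transporter of inflammatory macrophages, was 1.72 (adjusted p = 2.74e-06) higher in WT CCR2low, 1.47 (adjusted p = 7.75e-05) higher in Bhlhe41Cre in CCR2hi and -1.65 (adjusted p = 0.00203) in the interaction. Slc2a8 was 0.95 (adjusted p = 0.00161) between the Bhlhe41Cre gates. In WT it stood at 33.2, 32.9 and 32.6 CPM in CCR2low and 10.9, 15.7 and 17.2 in CCR2hi, so the direction was the same. The Mpc1 call between genotypes in CCR2hi ended without Bhlhe41Cre CCR2hi 2 (adjusted p = 0.0594).

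Genes lower in Bhlhe41Cre than in WT in CCR2low included Pdk2 (-1.56, adjusted p = 0.000179), Pdk4 (-3.08, adjusted p = 0.0136), Ldhb (-0.82, adjusted p = 0.0123) and Bpgm (-0.71, adjusted p = 0.0187), in contrast to 5 of 6 lower glycolysis members that were higher. Pdk2 was also lower in CCR2hi (-1.07, adjusted p = 0.0024). Pdk4 in WT CCR2low was 1.97, 3.82 and 33.8 CPM, so that 1 library lies far above the other 2. Interaction calls of Slc2a9 and Bpgm were -0.76 and -1.06. The Pdk4 call between genotypes in CCR2low ended without WT CCR2low 3 or Bhlhe41Cre CCR2low 2 or 3 (log2 -3.24 to -0.90, adjusted p = 0.0563 to 0.114), with no filter on low counts (adjusted p = 0.0906), with only the libraries compared (adjusted p = 0.0533), without both Bhlhe41Cre libraries numbered 3 (adjusted p = 0.0785) and with limma-trend on TPM (log2 -1.43, adjusted p = 0.0943). The Ldhb call between genotypes in CCR2low ended without Bhlhe41Cre CCR2low 1 or Bhlhe41Cre CCR2hi 1 (adjusted p = 0.0553 to 0.0596). The Bpgm call between genotypes in CCR2low ended without WT CCR2low 3, WT CCR2hi 1, Bhlhe41Cre CCR2low 1 or 3 or Bhlhe41Cre CCR2hi 1 or 3 (adjusted p = 0.0697 to 0.0898) and with only the libraries compared (adjusted p = 0.0547). The Slc2a9 call of the interaction ended without any 1 WT CCR2low library, WT CCR2hi 1 or 3, any 1 Bhlhe41Cre CCR2low library or any 1 Bhlhe41Cre CCR2hi library (log2 -0.82 to -0.48, adjusted p = 0.0504 to 0.231), with DESeq2 size factors (adjusted p = 0.0549), with no filter on low counts (adjusted p = 0.241), without both Bhlhe41Cre libraries numbered 3 (adjusted p = 0.0513) and with limma-trend on TPM (log2 -0.47, adjusted p = 0.173). The Bpgm call of the interaction ended without any 1 WT CCR2low library, WT CCR2hi 1 or 2, Bhlhe41Cre CCR2low 1 or 3 or any 1 Bhlhe41Cre CCR2hi library (log2 -1.13 to -0.61, adjusted p = 0.0574 to 0.213), with DESeq2 size factors (adjusted p = 0.0542) and with no filter on low counts (adjusted p = 0.0596).

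Of 30 further genes of the HIF pathway 29 passed the filter. Between the WT gates 9 higher and 13 lower were called, between the Bhlhe41Cre gates 5 higher and 12 lower, between genotypes in CCR2low 4 higher and 6 lower, in CCR2hi 6 higher and 5 lower and in the interaction 1 higher and 1 lower, with medians of -0.19, -0.18, -0.20, 0.04 and -0.10. Of this list 31% and 44.8%, 17.2% and 41.4%, 13.8% and 20.7%, 20.7% and 17.2%, and 3.45% and 3.45% were called higher and lower. Shares over all genes were 29.8% and 30.0%, 24.9% and 29.1%, 16.4% and 26.7%, 16.2% and 15.9%, and 4.74% and 7.85% in the same order. All 16 fibroblast genes were lower in CCR2low in both genotypes, and their part in the values of Lox, Plod2 and Stc2 was not tested. Lysyl oxidase Lox differed by -3.89 (adjusted p = 4.31e-06) in WT. In Bhlhe41Cre it stood at 51.2, 114.8 and 29.3 CPM in CCR2low and 813, 766 and 482 in CCR2hi. The collagen lysyl hydroxylase Plod2 differed by -3.71 (adjusted p = 9.89e-07) and -3.38 (adjusted p = 2.74e-06) for WT and Bhlhe41Cre. The secreted glycoprotein Stc2 differed by -4.04 (adjusted p = 3.48e-08) and -3.76 (adjusted p = 1.82e-07). The stress gene Ddit4 was lower in CCR2low in Bhlhe41Cre (-2.33, adjusted p = 1.68e-06). In WT it stood at 45.7, 47.0 and 62.4 CPM in CCR2low and 211, 132 and 105 in CCR2hi, so the direction was the same. Mxi1, a MYC antagonist, was higher in CCR2low by 1.21 (adjusted p = 4.03e-07) for WT and 1.21 (adjusted p = 5.59e-07) for Bhlhe41Cre, though -1.96 and -0.81 on the macrophage scale.

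Between genotypes, the transferrin receptor Tfrc was higher in Bhlhe41Cre by 2.50 (adjusted p = 3.95e-05) in CCR2low and 2.06 (adjusted p = 0.000112) in CCR2hi. It stood at 12.9, 13.7 and 15.4 CPM in CCR2low and 7.74, 7.41 and 5.91 in CCR2hi for WT, and at 109, 73.03 and 55.4 in CCR2low and 32.6, 36.2 and 19.3 in CCR2hi for Bhlhe41Cre, with no overlap between genotypes within a gate. Zfp395 was lower in Bhlhe41Cre, with -1.73 (adjusted p = 0.000109) and -1.16 (adjusted p = 0.00151), as was Stc2, with -2.01 (adjusted p = 0.00017) and -2.29 (adjusted p = 5.9e-06). The mitochondrial protein Higd1a was higher in Bhlhe41Cre in CCR2low (0.66, adjusted p = 0.0034). The second HIF subunit, Epas1 (HIF2α), had an interaction of -1.24 (adjusted p = 0.0333), opposite in sign to that of Hif1a, and stood at 103, 125 and 202 CPM in CCR2low and 185, 242 and 203 in CCR2hi for WT, and at 73.5, 97.1 and 58.6 in CCR2low and 309, 218 and 264 in CCR2hi for Bhlhe41Cre. Bhlhe40, the close relative of Bhlhe41 and a HIF target, was lower in Bhlhe41Cre in CCR2hi (-0.67, adjusted p = 0.00665) and had an interaction of 0.76 (adjusted p = 0.045). The Epas1 call of the interaction ended without WT CCR2low 2 or 3, WT CCR2hi 1 or 3, Bhlhe41Cre CCR2low 1 or 3 or any 1 Bhlhe41Cre CCR2hi library (adjusted p = 0.0527 to 0.154), with DESeq2 size factors (adjusted p = 0.0553), with no filter on low counts (adjusted p = 0.142), without both Bhlhe41Cre libraries numbered 3 (adjusted p = 0.0835), with limma-trend on TPM (adjusted p = 0.128) and with replicate numbers as a block (adjusted p = 0.0505). The Bhlhe40 call of the interaction ended without any 1 WT CCR2low library or Bhlhe41Cre CCR2low 1 or 2 (adjusted p = 0.0731 to 0.107), with no TMM factor (adjusted p = 0.0649), without both Bhlhe41Cre libraries numbered 3 (adjusted p = 0.0573) and with replicate numbers as a block (adjusted p = 0.0634).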

How the data were processed

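Bulk RNA of sorted heart macrophages was sequenced in 12 libraries, 3 in each of 4 groups given by the sample titles. The authors deposited 1 table of expected counts and 1 of TPM. Per the submitters' processing notes, bases were called with CASAVA 1.8, reads were aligned to mm10 with STAR 2.4.0j and counted with RSEM (version, annotation and strand setting not given in the sources used here). Deposited expected counts were already whole numbers and summed to 17.7 to 20.83 M per library. The SE beside each value gives its precision. Columns of the Bhlhe41Cre libraries are headed KD and were matched to samples by gate and number, and 0 columns were left unmatched. Named copies of members in the table (13, such as pseudogenes) held at most 75 counts each over all libraries, and the second Aldoa row held 37.

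The main test was edgeR 4.0.16 (R 4.3.3): TMM scaling, its filter on low counts (14964 of 53801 genes kept, while 27248 had no count), a robust quasi-likelihood fit of 4 group means with 8 residual degrees of freedom, and Benjamini-Hochberg adjustment over all genes kept, with calls at an adjusted p under 0.05. Each SE is the log2 fold change divided by the square root of its F statistic. The fit was also made with library scale set by the 17 macrophage genes. The test was tested on simulated data with known changes. The members and gene lists were chosen with earlier results of these data known. All 34 members are named; values by library were given for up to 2 members per role and comparison, and for other pathway genes up to 4 per list and comparison were named, by smallest adjusted p at 5 CPM or more; other values were added where a group or library stood apart. Alternatives were DESeq2 1.42.0, limma 3.58.1 on log2 TPM, other scalings and filters, a fold minimum of 1.5, each library left out and replicate numbers as a block.

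Replicate numbers were checked for pairing by correlating deviations from group means. Between the Bhlhe41Cre gates same-numbered libraries correlated at 0.227, 0.119 and 0.396, and differently numbered ones at -0.348 to 0.215. CCR2low 2 correlated at 0.215 with CCR2hi 1 and at 0.119 with CCR2hi 2, so this check does not settle pairing by number there. Between the WT gates same-numbered libraries correlated at -0.064, 0.028 and -0.048, which does not treat them as pairs. The block ended the calls of Pdk1 (interaction) and Gpi1 (genotypes in CCR2hi) among members. Gene positions are from GENCODE release M21 (34 of 34 matched) and promoter windows from RefSeq, both on GRCm38.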

Additional observations from a re-analysis of the deposited data

Results flagged for a closer look

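For 6 members the difference between the gates differed between the genotypes by the interaction test of edgeR (adjusted p under 0.05 over all genes). Eno2 had an interaction of 1.66, with a gate difference (CCR2low minus CCR2hi, log2) of -0.20 in WT and 1.46 in Bhlhe41Cre. Hif1a had an interaction of 1.41, from -1.09 in WT to 0.32 in Bhlhe41Cre. The other 4 were negative. Slc2a3 had -1.41, from -0.25 to -1.66, and Slc16a3 had -1.0, from 0.63 to -0.37. Hk3 had -1.29, from 4.09 to 2.80, and Pdk1 had -0.69, from 1.35 to 0.65. On the macrophage scale Eno2 (2.73) and Hif1a (2.59) were called and the other 4 were not. Without each library in turn, 2 of the 6 calls held.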

How the results depend on the processing

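Recomputed counts of calls stayed within 1.5 times the reported count in 233 cases and moved further in 42, counting those on the macrophage scale, the other pathway genes and the isoform ratios. A fold minimum of 1.5 left 10 of 22 member calls between the Bhlhe41Cre gates, 5 of 19 between genotypes in CCR2low, 10 of 21 between genotypes in CCR2hi and 0 of 6 in the interaction (18 of 26 between the WT gates). Over all genes it left 4928, 2486, 1329 and 478 calls in the same order (5509 between the WT gates). The interaction had 10 member calls with no TMM factor and 2 with limma-trend on TPM, beside 2291 and 1181 calls over all genes. Leaving out 1 library at a time gave 2 to 7 interaction calls among members, the fewest without Bhlhe41Cre CCR2hi 2 or 3. Over all genes it gave 871 (without Bhlhe41Cre CCR2low 1) to 2801 (without Bhlhe41Cre CCR2low 3) interaction calls. On the macrophage scale it gave 1 to 22 member calls between genotypes in CCR2low (reported 4), 6 to 16 in CCR2hi (reported 11) and 2 to 15 in the interaction (reported 4). Among the other pathway genes it gave 13 to 22 calls between genotypes in CCR2low (reported 21, fewest without Bhlhe41Cre CCR2low 1), 10 to 17 in CCR2hi (reported 16, fewest without Bhlhe41Cre CCR2hi 2 or 3) and 2 to 7 in the interaction (reported 7, fewest without WT CCR2low 2). It gave 2 to 6 isoform ratios between genotypes (reported 4, fewest without any 1 WT CCR2low library, most without WT CCR2hi 1). The cause was not tested. Values of 3 single genes changed sign and were called without 1 library: between genotypes in CCR2hi on the macrophage scale Gapdh moved from -0.10 to 0.43 and Pgk1 from -0.10 to 0.48 without WT CCR2hi 1 (range over all libraries left out -0.33 to 0.43 and -0.36 to 0.48), and Pdk4 between the WT gates moved from 0.71, not called, to -1.46 without WT CCR2low 3 (range -1.46 to 1.23). Of the other recomputed values of single genes and ratios, 7730 kept their direction and side of the threshold, 437 lost the call and 189 gained it. Limma-trend on TPM shifted the median of all genes by -0.32 between the WT gates and -0.21 between the Bhlhe41Cre gates, and totals with no TMM factor by -0.10 and -0.20. Depth limits members that stood at a few CPM in some groups, among them Aldoc, Ankrd37, Eno2 and Adm, while the widest SE between the WT gates was that of Hk2 (0.45).

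With replicate numbers as a block, 21 members were called higher and 6 lower between the WT gates, 15 and 7 between the Bhlhe41Cre gates, 13 and 6 between genotypes in CCR2low, 21 and 1 in CCR2hi and 2 and 4 in the interaction. Over all genes the block gave 8670, 7824, 6099, 4473 and 1573 calls in the same order. With the block the Pdk1 interaction was -0.69 (adjusted p = 0.0724, edgeR) and the Gpi1 difference between genotypes in CCR2hi 0.43 (adjusted p = 0.0556). With the block set within genotype the Pdk1 interaction was -0.67 (adjusted p = 0.0553). No other member call on the total-RNA scale was lost under the block. The block also ended 3 calls of other pathway genes, the interactions of Epas1 (adjusted p = 0.0505) and Bhlhe40 (adjusted p = 0.0634) and Higd1a between genotypes in CCR2hi (adjusted p = 0.0631).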
